A study of Mus musculus with 15 samples.

Results

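The tripartite motif (TRIM) genes were followed across 5 groups of mouse bone marrow-derived macrophages (BMDMs). Members were the rows of the deposited expression table named Trim plus a number, with or without a letter, which gave 67 of 20089 genes. Of these, 45 averaged 0.1 FPKM or more over the 15 samples and are described here (FPKM, fragments per kilobase of exon, scaled to the mapped reads of the sample). BMDMs are macrophages grown from marrow, and all 15 samples came from wild-type C57BL/6 mice and received M-CSF, the growth factor that keeps macrophages and their precursors alive. The control group received M-CSF alone, and the others also received RANKL, the cytokine that turns macrophages into bone-resorbing osteoclasts, or LPS, a bacterial cell wall lipid that activates them through Toll-like receptor 4. RANKL and LPS were each given for 4 h or for 3 d, with 3 samples in each of the 5 groups. The labels do not give the age of the animals, whether replicates came from separate animals or cultures, or the time at which the controls were harvested. The p-values therefore measure the spread between these samples, which may be technical, and time in culture cannot be told apart from treatment at 3 d.

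Most TRIM proteins carry a RING finger, B-boxes and a coiled coil and act as E3 ubiquitin ligases, which attach ubiquitin to chosen proteins and so mark them for degradation or change their signalling. The domain at the carboxy end selects the target and divides the family into classes: many members with a PRY-SPRY domain restrict viruses or act in RNA and DNA sensing and are interferon-inducible, those with a COS box bind microtubules, and those with a PHD finger and bromodomain act on chromatin. Trim46, a COS-box member best known for organising microtubules at the start of the neuronal axon, is the ligase the study follows.

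Depth was even, with 18306184 to 20330207 fragments assigned to genes per sample as recovered from the steps between FPKM values. Macrophage markers were high in all groups, 9 of 10 osteoclast markers rose after 3 d of RANKL, and 9 of 10 LPS response markers rose after 4 h of LPS. The samples also held RNA of other cell types, and since this is bulk RNA, fewer cells of a type and less RNA per cell cannot be told apart. After 3 d of RANKL, 10 of 18 stromal markers rose and none fell, against 16.6% of all genes higher. With samples shifted to a common median gene, 3 of the 18 rose and none fell. Their summed level was 501 to 2277 FPKM against 190 to 416 FPKM in the controls. After 3 d of LPS, all 10 neutrophil and promyelocyte markers fell, from a summed 7913 to 24348 FPKM in the controls to 152 to 1816 FPKM. The LPS 3 d replicate 3 stood apart from replicates 1 and 2. The squared difference of their fragment counts was, in the median gene, 54.8 and 37.6 times that expected from sampling alone. In every other replicate pair this ratio of squared differences was 7.65 to 23.0.

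Promoter sequence is shown for members with an interferon-stimulated response element (ISRE) core, the site that interferon-activated factors recognise, since several of them moved with the treatments. That of Trim2 and Trim12c, which also hold a core, is not printed. RefSeq windows from 250 bases before to 50 bases after the start of transcription (GRCm38.p6) were found for 34 of the 45 described genes. The ISRE core (GAAA, any 2 bases, GAAA, or on the other strand TTTC, any 2 bases, TTTC) was in the windows of 9 of these 34 genes (26.5%), against 4.01% of all 14806 genes with a window and 4.10% of those averaging 0.1 FPKM or more. The holders were Trim2, Trim5, Trim12a, Trim12c, Trim21, Trim26, Trim30a, Trim30d and Trim34a, and 6 of the 9 lie in the chromosome 7 tandem cluster, whose copies share ancestry and are not independent. A match is a description of letters and shows no binding.

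The following stretches run 5′ to 3′ on each gene's own strand, with the ISRE core in capitals. Those of Trim21 (chr7:102565453-102565542, minus), Trim30a (chr7:104465164-104465253, minus), Trim30d (chr7:104507820-104507909, minus), Trim12a (chr7:104315466-104315555, minus), Trim5 (chr7:104288077-104288166, minus) and Trim34a (chr7:104244397-104244486, plus) run from 60 bases before to 30 bases after the start. That of Trim26 (chr17:36836956-36837045, plus) lies wholly before its start. Trim21 and Trim26 each held an overlapping pair of cores, which appears as 1 run of capitals.
Trim21: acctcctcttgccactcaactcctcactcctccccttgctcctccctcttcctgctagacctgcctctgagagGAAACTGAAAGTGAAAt
Trim26: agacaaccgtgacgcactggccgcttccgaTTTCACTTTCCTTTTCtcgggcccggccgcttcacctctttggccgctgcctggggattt
Trim30a: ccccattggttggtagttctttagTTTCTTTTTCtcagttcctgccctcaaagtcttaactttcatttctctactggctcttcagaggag
Trim30d: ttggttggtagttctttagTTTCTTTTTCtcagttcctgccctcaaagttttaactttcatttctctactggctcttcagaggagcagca
Trim12a: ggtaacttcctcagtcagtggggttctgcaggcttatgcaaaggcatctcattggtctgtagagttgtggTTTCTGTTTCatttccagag
Trim5: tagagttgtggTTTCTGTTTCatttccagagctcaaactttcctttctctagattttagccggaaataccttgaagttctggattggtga
Trim34a: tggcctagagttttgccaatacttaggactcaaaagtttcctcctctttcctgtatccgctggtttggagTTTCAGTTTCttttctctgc

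By level, Trim30a, a repressor of Toll-like receptor signalling, had the highest mean over the 15 samples at 81.1 FPKM. It was followed by Trim25, the ligase that acts on the RNA sensor RIG-I, at 78.6 FPKM and Trim28, the corepressor also called KAP1, at 43.6 FPKM. Trim35 had 33.5 FPKM and Trim30d 28.5 FPKM. The summed level of the 45 genes was 526 to 605 FPKM in the controls, 411 to 496 FPKM after 4 h and 443 to 470 FPKM after 3 d of RANKL, 642 to 742 FPKM after 4 h of LPS and 460 to 499 FPKM after 3 d of LPS. The member just above the limit of 0.1 FPKM was Trim2 with a mean of 0.122 FPKM, and the member just below was Trim58 with 0.0393 FPKM.

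Another 22 members had a mean below 0.1 FPKM and were not tested. Trim31, Trim40, Trim42, Trim50, Trim52, Trim60, Trim61 and Trim75 were listed at 0 in all 15 samples. The highest single values of the others were 0.158 FPKM for Trim43a, 0.129 FPKM for Trim58, 0.0869 FPKM for Trim38, 0.0862 FPKM for Trim43b and 0.0629 FPKM for Trim66. Trim9, Trim10, Trim15, Trim43c, Trim55, Trim63, Trim67, Trim71 and Trim80 did not exceed 0.0516 FPKM in any sample. Trim9 and Trim67, which share the domain class of Trim46, and the muscle ligases Trim55 and Trim63 were thus at the bottom of the range.

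**Figure D1:**
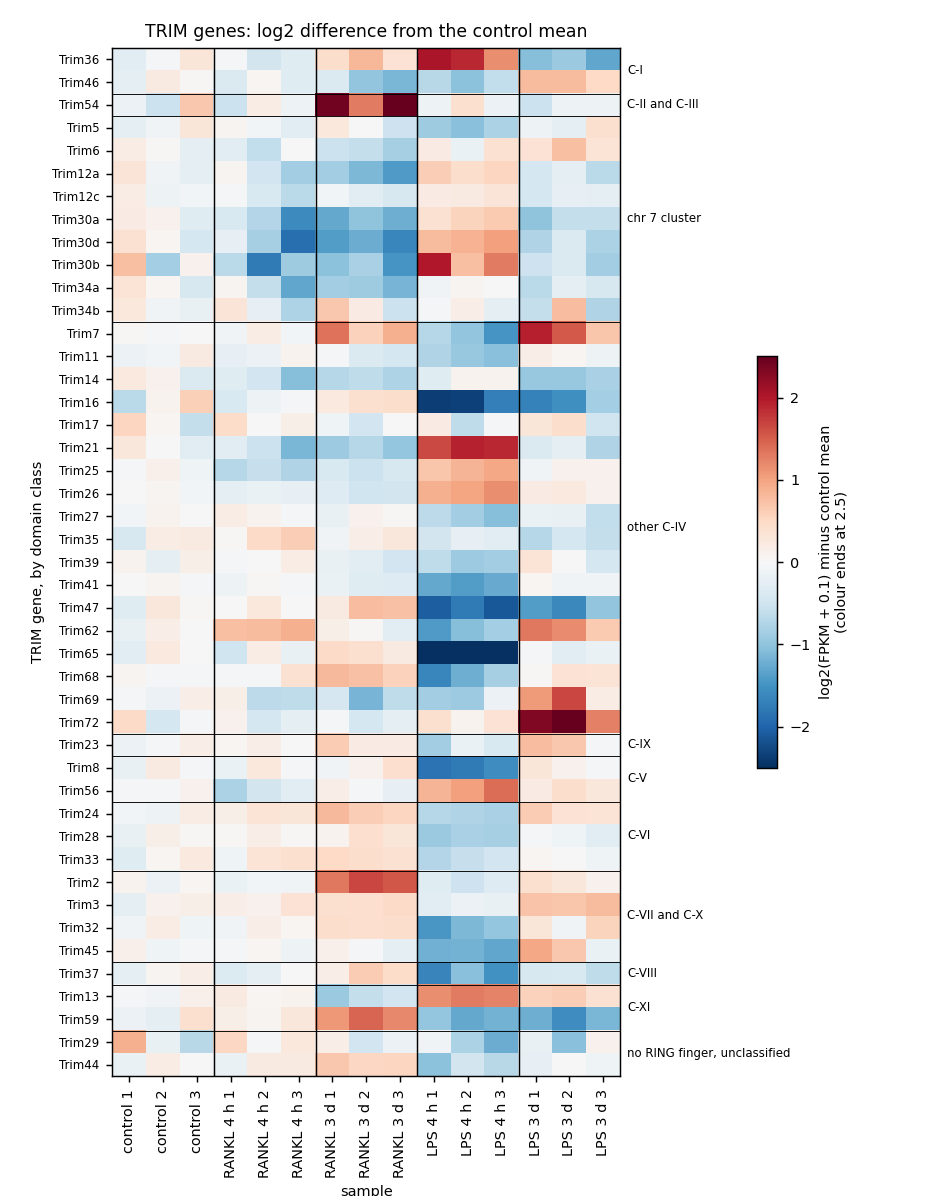
Each row is 1 of the 45 described TRIM genes, grouped by domain class, and each column is 1 sample. Colour gives log2(FPKM + 0.1) minus the mean of the 3 control samples, with the scale ending at 2.5 on both sides. The LPS 4 h samples hold most of the strong colours, with Trim65, Trim16, Trim47 and Trim8 low and Trim21, Trim36 and Trim30b high.

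Each comparison was made with limma on log2(FPKM + 0.1), in 1 fit of all 15 samples and the 11743 genes that averaged 0.1 FPKM or more. A gene was called higher or lower when its fold change was above 1.5 or below 0.66 and its p-value, adjusted over all 11743 genes by the Benjamini-Hochberg method, was below 0.05. Differences are given on the log2(FPKM + 0.1) scale with their standard error, and they understate the change of low genes. The 4 comparisons with control share its 3 samples. Where samples are said not to overlap, this is given for genes that were called. The share of all genes without overlap was not counted.

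After 4 h of RANKL, 1 of the 45 TRIM genes was called, in the lower direction, against 0.119% of all genes tested (0.111% higher and 0.00852% lower). Trim25 had 74.6, 83.2 and 70.1 FPKM in the controls and 46.5, 50.9 and 44.9 FPKM after RANKL. All 3 RANKL samples were below all controls, and the level fell by 0.68 ± 0.11 (limma, adjusted p = 0.0305). The median difference was -0.10 over the 45 TRIM genes and 0.00 over all genes. The call did not hold without any 1 of the 3 control or 3 RANKL 4 h samples, or without LPS 3 d replicate 2 or LPS 4 h replicate 2, when no TRIM gene was called. Other interferon-linked members lay lower in the same direction without being called. Trim30a had 114, 107 and 80.1 FPKM in the controls and 75.9, 60.1 and 32.7 FPKM after RANKL, and Trim30d had 41.7, 33.2 and 23.4 against 27.6, 17.8 and 8.58 FPKM. In both groups replicate 1 was the highest and replicate 3 the lowest for both genes, and the summed interferon response markers had the same order, with 4329, 2564 and 1327 FPKM in control replicates 1, 2 and 3 and 2991, 1724 and 922 FPKM after 4 h of RANKL.

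After 4 h of LPS, 28 of the 45 TRIM genes were called (62.2%), 8 higher and 20 lower, against 48.1% of all genes (8.43% higher and 39.7% lower). The scale of this comparison bears on its split: the median of all 11743 genes lay at -0.52 and that of the TRIM genes at -0.60. With samples centred, that is shifted to a common median gene, 12 TRIM genes were higher and 9 lower, and all genes changed from 990 higher and 4660 lower to 1871 higher and 1529 lower. The genes called higher on both scales were Trim13, Trim21, Trim25, Trim26, Trim30b, Trim30d, Trim36 and Trim56, and those lower on both were Trim8, Trim16, Trim32, Trim37, Trim41, Trim45, Trim47, Trim65 and Trim68.

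Trim21 had the largest rise of the 8 genes and, with Trim25 and Trim26, belongs to the interferon-linked PRY-SPRY ligases. Trim21, the cytosolic antibody receptor, had 23.0, 18.7 and 15.7 FPKM in the controls and 59.8, 72.4 and 70.2 FPKM after LPS, a rise of 1.82 ± 0.21 (limma, adjusted p = 8.67e-06). Trim25 rose by 0.83 ± 0.11 to 122, 136 and 148 FPKM (adjusted p = 2.29e-05). Trim26, a ligase of the major histocompatibility region, went from 21.9, 22.8 and 20.8 FPKM to 40.4, 43.5 and 48.8 FPKM, a rise of 1.01 ± 0.10 (adjusted p = 1.89e-06). No LPS sample of these 3 genes overlapped a control.

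In the tandem cluster, Trim30d reached 55.1, 58.3 and 64.6 FPKM and rose by 0.89 ± 0.32 (limma, adjusted p = 0.0272). Trim30b, a low-level copy, had 0.874, 0.220 and 0.523 FPKM in the controls and 2.22, 0.874 and 1.33 FPKM after LPS, a rise of 1.35 ± 0.42 (adjusted p = 0.0141). The lowest LPS value of Trim30b was equal to its highest control to 3 digits. Trim30b rested on 13 to 52 fragments per control and 52 to 126 per LPS sample. The Trim30d call was lost without control replicate 2 or 3 or LPS 4 h replicate 2 or 3, and that of Trim30b without control replicate 2 or LPS 4 h replicate 1. Trim30a had 130, 145 and 157 FPKM after LPS and did not pass the fold limit, at 0.53 ± 0.24.

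**Figure D2:**
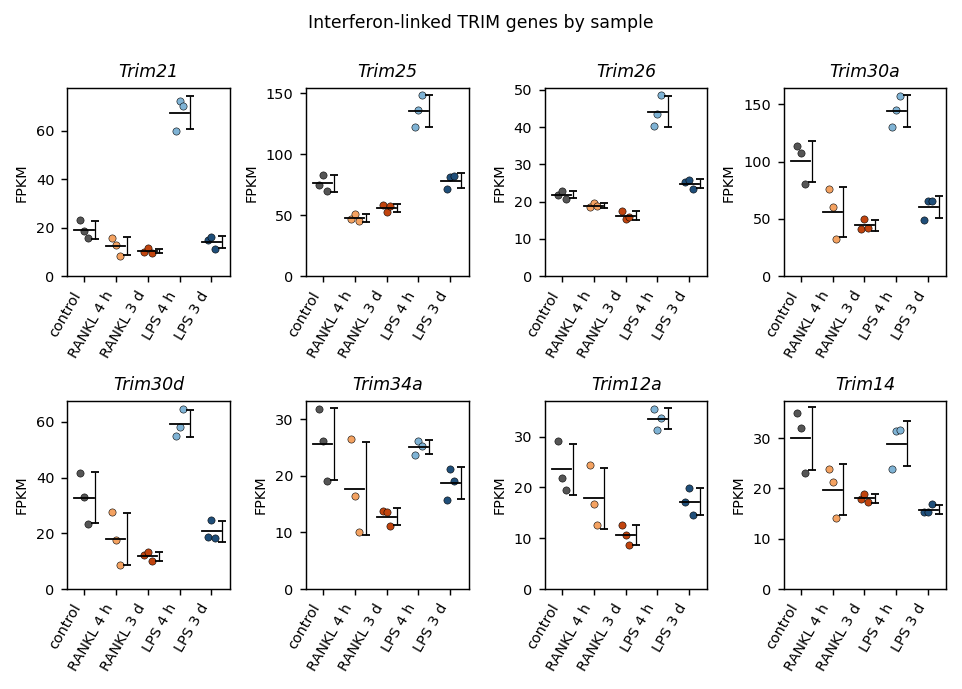
Points are FPKM in single samples of the 5 groups, with the mean as a line and the SD as a bar (n = 3), on a linear axis from 0. Trim21, Trim25 and Trim26 are highest after 4 h of LPS, while Trim34a and Trim14 lie at the control level there and all 8 genes are below the control mean after 3 d of RANKL.

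Of 14 interferon-linked TRIM genes tested, a list taken from general knowledge of the family, 6 rose and 1 fell after 4 h of LPS, with a median of 0.53. The list was chosen with earlier results of these data known, so its counts here and below are descriptions. Of all genes, 8.43% were called higher. With centring, 10 of the 14 were higher and none lower. The gene that fell was Trim5, the rodent relative of the retroviral restriction factor, with 2.67, 2.95 and 3.90 FPKM in the controls and 1.65, 1.47 and 1.78 FPKM after LPS (-0.90 ± 0.23, limma, adjusted p = 0.0040), and with centring it was not called. It holds the same ISRE core letters as Trim12a. Among TRIM genes with a promoter window, the core was in 3 of 7 called higher and 1 of 16 called lower, against 9 of all 34. Among all genes averaging 0.1 FPKM or more it was in 4.10%. Of 8 interferon response markers tested, 5 rose, and their summed level was 8812 to 9305 FPKM against 1327 to 4329 FPKM in the controls. Their part in the TRIM result was not tested.

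Trim36, Trim13 and Trim56 also rose. Trim36 is a microtubule-associated ligase. It is the only other described member that, like Trim46, joins a COS box to fibronectin type III and SPRY domains. It had 0.864, 1.03 and 1.32 FPKM in the controls and 4.64, 4.19 and 2.51 FPKM after LPS (1.70 ± 0.25, limma, adjusted p = 7.01e-05). Trim13, a ligase anchored in the endoplasmic reticulum, went from 3.76, 3.61 and 4.23 FPKM to 8.80, 9.69 and 9.2 FPKM (1.24 ± 0.14, adjusted p = 9.14e-06). Trim56, which acts in DNA sensing and is counted in the interferon-linked list, went from 5.02, 5.001 and 5.61 FPKM to 9.45, 10.7 and 13.9 FPKM (1.09 ± 0.17, adjusted p = 0.000119). None of these groups overlapped.

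The largest falls were in ligases of other roles. Trim65, which acts on the RNA sensor MDA5, went from 1.94, 2.80 and 2.35 FPKM to 0.295, 0.256 and 0.272 FPKM and fell by 2.71 ± 0.20 (limma, adjusted p = 1.64e-07). Trim47, whose gene overlaps that of Trim65 on the same strand, went from 10.2, 15.3 and 12.9 FPKM to 2.93, 3.63 and 2.81 FPKM (-1.99 ± 0.20, adjusted p = 2.92e-06). Reads in the shared part could be counted for either gene, so these 2 falls are not separate in that part.

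Trim16, a ligase of the stress response, went from 1.73, 3.00 and 4.36 FPKM to 0.473, 0.486 and 0.803 FPKM (-2.13 ± 0.31, limma, adjusted p = 6.01e-05). Trim8, a ligase of cytokine and NF-κB signalling, went from 26.1, 34.5 and 28.8 FPKM to 8.16, 8.65 and 10.03 FPKM (-1.72 ± 0.16, adjusted p = 1.23e-06). The control and LPS samples of each gene lay apart. Trim37 fell by 1.4 ± 0.19, Trim41 by 1.31 ± 0.10, Trim45 by 1.23 ± 0.26, Trim68 by 1.23 ± 0.21, Trim32 by 1.17 ± 0.18 and Trim59 by 1.14 ± 0.20, with adjusted p from 1.65e-07 to 0.00106. The other 10 falls ranged from -0.73 to -1.11 and, with that of Trim59, were not called when samples were centred. These include the chromatin members Trim28 and Trim24, while the third tested member of that class, Trim33, was not called. Among the weaker calls, that of Trim7 was lost without LPS 4 h replicate 3 and that of Trim44 without LPS 4 h replicate 1.

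After 3 d of RANKL, 15 of the 45 TRIM genes were called (33.3%), 6 higher and 9 lower, against 24.2% of all genes (16.6% higher and 7.54% lower). The median was -0.03 over TRIM genes and 0.16 over all genes, and with centring 3 were higher and 12 lower. The lower genes came largely from the tandem cluster on chromosome 7, where 5 of 9 members fell, with a median of -0.97, and none rose.

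Trim30d had 12.1, 13.3 and 10.2 FPKM after RANKL against 41.7, 33.2 and 23.4 FPKM in the controls and fell by 1.43 ± 0.32 (limma, adjusted p = 0.00473). Trim30a had 40.8, 49.7 and 42.4 FPKM against 114, 107 and 80.1 FPKM (-1.17 ± 0.24, adjusted p = 0.00322). Trim12a, one of the mouse relatives of human TRIM5, had 12.6, 10.6 and 8.69 FPKM against 29.1, 21.9 and 19.6 FPKM (-1.14 ± 0.22, adjusted p = 0.00206). In each of the 3 genes every RANKL sample was below every control. Trim34a fell by 0.97 ± 0.27 and Trim6 by 0.65 ± 0.23, with adjusted p of 0.0153 and 0.0419. Trim30b differed by -1.11 with an adjusted p of 0.0624, and in the fit with a replicate block its adjusted p was 0.0323 and it was called. The near-identical copies Trim12a and Trim12c, Trim34a and Trim34b, and Trim30a, Trim30b and Trim30d may share reads, so the division of a change among copies is uncertain.

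Outside the cluster, Trim21 fell by 0.86 ± 0.21 to 10.04, 11.5 and 9.69 FPKM (limma, adjusted p = 0.00770). Trim14, a mitochondrial adaptor in antiviral signalling that lacks a RING finger, went from 35.0, 31.9 and 23.0 FPKM to 17.99, 18.9 and 17.2 FPKM (-0.71 ± 0.19, adjusted p = 0.0136). Trim13 went from 3.76, 3.61 and 4.23 FPKM to 1.98, 2.53 and 2.76 FPKM (-0.66 ± 0.14, adjusted p = 0.00384). All 3 genes had RANKL samples below every control. In sum 7 of 14 interferon-linked TRIM genes fell and none rose, with a median of -0.68, against 7.54% of all genes lower. Of the 8 lower TRIM genes with a promoter window, 5 held the ISRE core, against 1 of 6 called higher (Trim2). Among all described TRIM genes with a window it was 9 of 34, and among all genes averaging 0.1 FPKM or more 4.10%. Of the 5 holders, Trim12a, Trim30a, Trim30d and Trim34a are copies in the tandem cluster and not independent. All 8 interferon response markers tested also fell, with a median of -2.76 and a summed level of 365 to 524 FPKM against 1327 to 4329 FPKM in the controls. Markers of other cell types fell too, with 4 of 5 B cell (median -3.07), 5 of 10 neutrophil (median -2.13) and 4 of 4 tested erythroid markers (median -1.94). The part of any of these in the TRIM result was not tested. Without control replicate 1, which had the highest marker level, 6 TRIM genes were called lower and 4 higher, and Trim14, Trim34a, Trim6, Trim68 and Trim7 were no longer called. Trim6 was also lost without control replicate 2, any 1 RANKL 3 d sample, LPS 4 h replicate 1 or RANKL 4 h replicate 1, Trim34a without RANKL 3 d replicate 3, and Trim13 without control replicate 3 or RANKL 3 d replicate 1.

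The genes that rose after 3 d of RANKL came from several classes. Trim59, a membrane-anchored ligase, had 2.35, 2.21 and 3.50 FPKM in the controls and 5.69, 7.42 and 6.21 FPKM after RANKL, a rise of 1.25 ± 0.20 (limma, adjusted p = 0.000498). Trim2, an NHL-repeat ligase known from neurons, went from 0.0746, 0.0479 and 0.0692 FPKM to 0.309, 0.419 and 0.379 FPKM (1.51 ± 0.22, adjusted p = 0.000244). Trim54, a muscle RING-finger protein that binds microtubules, went from 0.0304, 0 and 0.131 FPKM to 0.667, 0.255 and 1.26 FPKM (2.31 ± 0.44, adjusted p = 0.00178). No groups overlapped, but Trim54 rested on 0 to 4 fragments per control and 8 to 39 per RANKL sample. The sizes of both Trim54 and Trim2 depend on the settings. Over the alternative settings Trim54 ranged from 0.67 to 3.99 and was called in all 24. Trim2 was at 0.36 at a pseudocount of 1, where it was not called.

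Trim24, a bromodomain coregulator of nuclear receptors, had 1.62, 1.56 and 1.95 FPKM in the controls and 3.04, 2.65 and 2.51 FPKM after RANKL (0.65 ± 0.16, limma, adjusted p = 0.00790). Trim68 had 1.34, 1.23 and 1.25 against 2.31, 2.18 and 1.95 FPKM (0.70 ± 0.21, adjusted p = 0.0239), and Trim7 had 0.181, 0.169 and 0.180 against 0.609, 0.311 and 0.412 FPKM (0.94 ± 0.32, adjusted p = 0.0403). None of these 3 was called when samples were centred. Trim24 was also lost without RANKL 3 d replicate 1, Trim68 without any 1 control or RANKL 3 d replicate 1 or 2, and Trim7 without any 1 control, RANKL 3 d replicate 1 or 3, LPS 3 d or LPS 4 h replicate 2, or RANKL 4 h replicate 2. Stromal markers rose in the same samples, highest in replicate 1 at 2277 FPKM and lowest in replicate 3 at 501 FPKM. Trim24, Trim68 and Trim7 were also highest in RANKL 3 d replicate 1, Trim59 and Trim2 were lowest there, and Trim54 was highest in replicate 3. The part of stromal RNA in these rises was not tested.

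**Figure D3:**
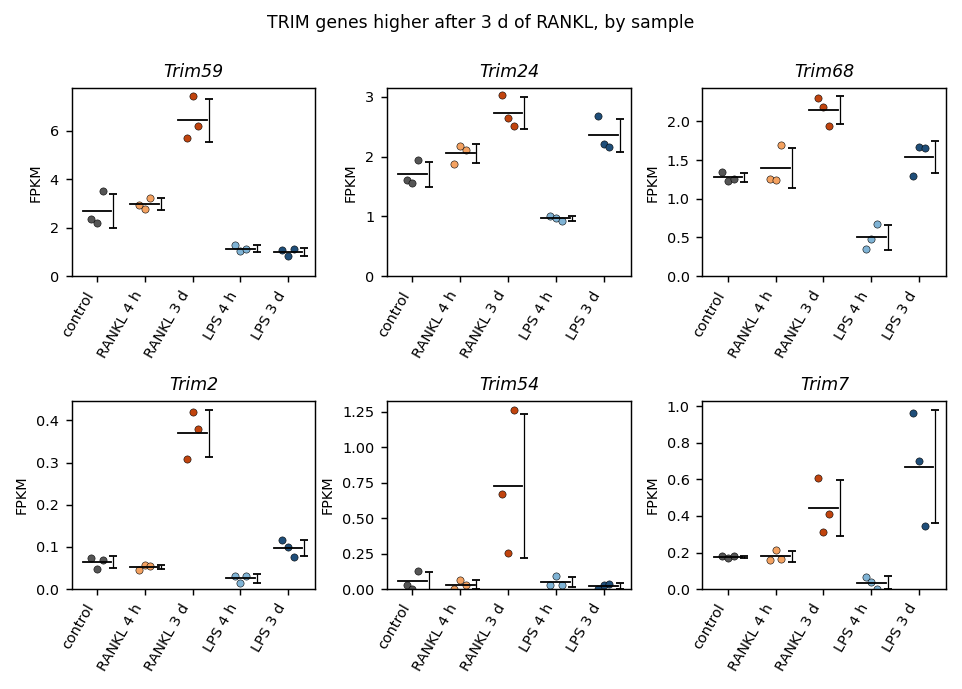
Points are FPKM in single samples of the 5 groups, with the mean as a line and the SD as a bar (n = 3), on linear axes from 0. Trim59, Trim24, Trim68, Trim2 and Trim54 have their highest samples after 3 d of RANKL, and Trim7 has its highest after 3 d of LPS.

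After 3 d of LPS, 11 of the 45 TRIM genes were called (24.4%), 5 higher and 6 lower, against 27.4% of all genes (13.0% higher and 14.4% lower). The medians were -0.04 over TRIM genes and 0.08 over all genes, and centring gave 4 higher and 7 lower. Without LPS 3 d replicate 3, the sample that stood apart, 9 were higher and 6 lower.

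Trim72, a muscle membrane-repair protein also called MG53, had 0.0896, 0 and 0.0321 FPKM in the controls and 0.572, 0.685 and 0.225 FPKM after LPS, a rise of 2.03 ± 0.35 (limma, adjusted p = 0.000589) that rested on 14 to 44 fragments per LPS sample. Trim7, whose SPRY domain binds glycogenin, went from 0.181, 0.169 and 0.180 FPKM to 0.963, 0.699 and 0.347 FPKM (1.39 ± 0.32, adjusted p = 0.00457). Replicate 3 was the lowest of the LPS samples for both genes and still above the controls. Trim62, a ligase of the adaptor CARD9, rose by 1.05 ± 0.22 (adjusted p = 0.00220), and Trim3, an NHL-repeat ligase, went from 5.96, 7.66 and 7.81 FPKM to 11.7, 11.5 and 12.3 FPKM (0.73 ± 0.12, adjusted p = 0.000534). At a pseudocount of 1 neither Trim72 nor Trim7 was called. Between the LPS times, 34 of the 45 TRIM genes differed, 23 higher and 11 lower at 3 d, against 58.1% of all genes (44.2% higher and 13.9% lower).

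Trim16 and Trim47 were low at 3 d of LPS as at 4 h, with differences from control of -1.36 ± 0.31 and -1.33 ± 0.20 (limma, adjusted p = 0.00405 and 0.000255). Trim59 fell by 1.31 ± 0.20 to 1.07, 0.828 and 1.14 FPKM (adjusted p = 0.000251), opposite to its rise with RANKL. Trim36 fell by 1.09 ± 0.25 to 0.455, 0.510 and 0.372 FPKM (adjusted p = 0.00431), below the controls after having been above them at 4 h. Trim14 fell by 0.90 ± 0.19 (adjusted p = 0.00280) and Trim30a by 0.73 ± 0.24 (adjusted p = 0.0323). The Trim30a call was lost without control replicate 1 or 2 or LPS 3 d replicate 1 or 2. Of the 14 interferon-linked TRIM genes, 2 fell (14.3%) and none rose, against 14.4% of all genes lower, so this share was that of the background. Of the markers, 10 of 10 neutrophil, 5 of 5 B cell and 5 of 8 interferon genes also fell in these samples, and their part was not tested.

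Trim46 (chr3:89234177-89246309, minus strand, GRCm38) was a low-level member in all groups and moved in opposite directions at 3 d. It had 0.481, 0.695 and 0.596 FPKM in the controls, 0.436, 0.605 and 0.458 FPKM after 4 h of RANKL and 0.433, 0.245 and 0.210 FPKM after 3 d of RANKL. After LPS it had 0.323, 0.234 and 0.349 FPKM at 4 h and 1.08, 1.08 and 0.862 FPKM at 3 d. The LPS 3 d samples lay above all others and the RANKL 3 d and LPS 4 h samples below all controls, on 16 to 87 fragments per sample. Its gene overlaps Krtcap2 on the opposite strand, and strand use in counting is not given in the sources used here. Other members also overlap a gene on the opposite strand, among them Trim13 (Dleu2), Trim14 (Nans), Trim28 (Zbtb45) and Trim41 (Rack1).

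Against control, Trim46 differed by -0.20 ± 0.25 after 4 h of RANKL (limma, adjusted p = 1), by -0.83 ± 0.25 after 3 d of RANKL (adjusted p = 0.0213), by -0.78 ± 0.25 after 4 h of LPS (adjusted p = 0.0146) and by 0.69 ± 0.25 after 3 d of LPS (adjusted p = 0.0437). Between the 3 d groups RANKL minus LPS was -1.52 ± 0.25 (95% confidence interval -2.05 to -0.99, adjusted p = 0.000236), and LPS 3 d minus LPS 4 h was 1.47 ± 0.25 (adjusted p = 0.000142). These 2 calls held in all 24 alternatives. The LPS 4 h difference was -0.21 with centring (adjusted p = 0.504), where it was not called. The LPS 3 d call held in 6 of 24 alternatives. Leaving out any 1 control, LPS 3 d replicate 1 or 2, LPS 4 h replicate 1 or 3, RANKL 3 d replicate 2 or any 1 RANKL 4 h sample also ended that call. The RANKL 3 d call was lost without control replicate 2 or 3 or RANKL 3 d replicate 2 or 3, and the LPS 4 h call without control replicate 2 or LPS 4 h replicate 2. By an exact two-sided permutation test of Trim46 alone, p was 0.1 in each of these comparisons except RANKL 4 h against control (0.3), and 0.1 is the smallest that 3 samples against 3 allow.

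**Figure D4:**
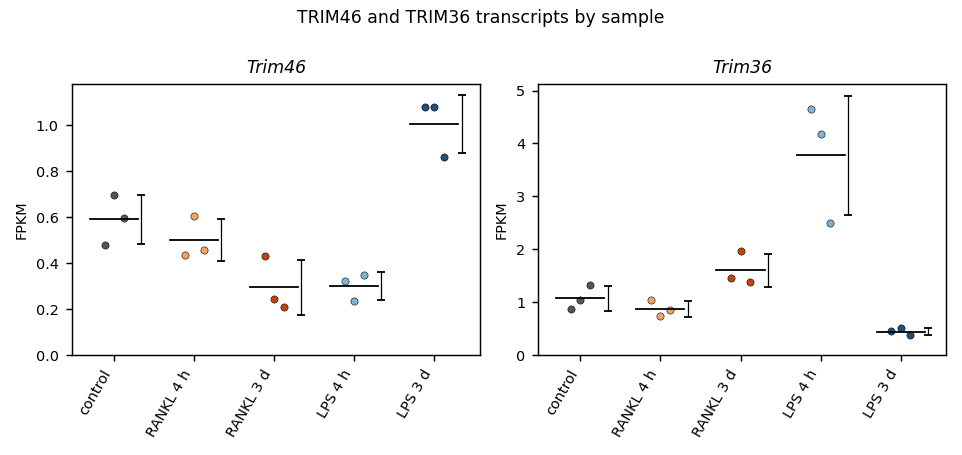
Points are FPKM of Trim46 (left) and Trim36 (right) in single samples of the 5 groups, with the mean as a line and the SD as a bar (n = 3), on linear axes from 0. Trim46 is highest after 3 d of LPS, where Trim36 is lowest, and Trim36 is highest after 4 h of LPS.

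RANKL and LPS were then compared directly at each time. At 4 h, 32 of 45 TRIM genes were called (71.1%), 21 higher and 11 lower with RANKL, against 50% of all genes (41.0% higher and 8.98% lower). With centring 11 were higher and 15 lower. At 3 d, 17 were called (37.8%), 9 higher and 8 lower with RANKL, against 36.1% of all genes (23.3% higher and 12.8% lower). With centring 7 were higher and 11 lower. The median at 3 d was -0.12 over TRIM genes and 0.11 over all genes. Without LPS 3 d replicate 3, 9 were higher and 10 lower.

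At 3 d, Trim59 was higher with RANKL than with LPS by 2.56 ± 0.20 (limma, adjusted p = 7.12e-07), Trim47 by 1.91 ± 0.20, Trim16 by 1.72 ± 0.31 and Trim36 by 1.64 ± 0.25. Trim47 had 14.8, 21.5 and 21.1 FPKM with RANKL and 4.73, 4.05 and 6.34 FPKM with LPS (adjusted p = 6.64e-06), and Trim36 had 1.46, 1.96 and 1.39 against 0.455, 0.510 and 0.372 FPKM (adjusted p = 0.000147). These 4 genes did not overlap between the treatments. Trim54 was higher by 2.58 ± 0.44, Trim2 by 1.25 ± 0.22, Trim37 by 0.90 ± 0.19, Trim35 by 0.70 ± 0.18 and Trim44 by 0.67 ± 0.16, the last 2 not being called with centring. The Trim54 difference ranged from 0.72 to 4.55 over the alternative settings, on 0 to 1 fragments per LPS 3 d sample. Trim2 was not called at a pseudocount of 1.

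Lower with RANKL at 3 d, beside Trim46, were Trim72 (-2.27 ± 0.35), Trim69 (-1.70 ± 0.38), Trim13 (-1.19 ± 0.14), Trim6 (-1.14 ± 0.23), Trim62 (-1.08 ± 0.22), Trim12a (-0.70 ± 0.22) and Trim26 (-0.61 ± 0.10). Trim13 had 1.98, 2.53 and 2.76 FPKM with RANKL against 5.79, 5.93 and 5.08 FPKM with LPS (limma, adjusted p = 1.97e-05). Trim6, which makes free ubiquitin chains that activate the kinase IKKε, had 0.664, 0.633 and 0.519 against 1.32, 1.76 and 1.30 FPKM (adjusted p = 0.00104). For both genes all RANKL samples were the lower. Trim72 had 0 to 2 fragments per RANKL 3 d sample, so its difference depends on the pseudocount: it was not called at a pseudocount of 1, and nor was Trim69. Trim12a was lost without LPS 3 d replicate 1 or 2 or RANKL 3 d replicate 3, and Trim26 without LPS 3 d replicate 2 or RANKL 3 d replicate 2 or 3.

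**Figure D5:**
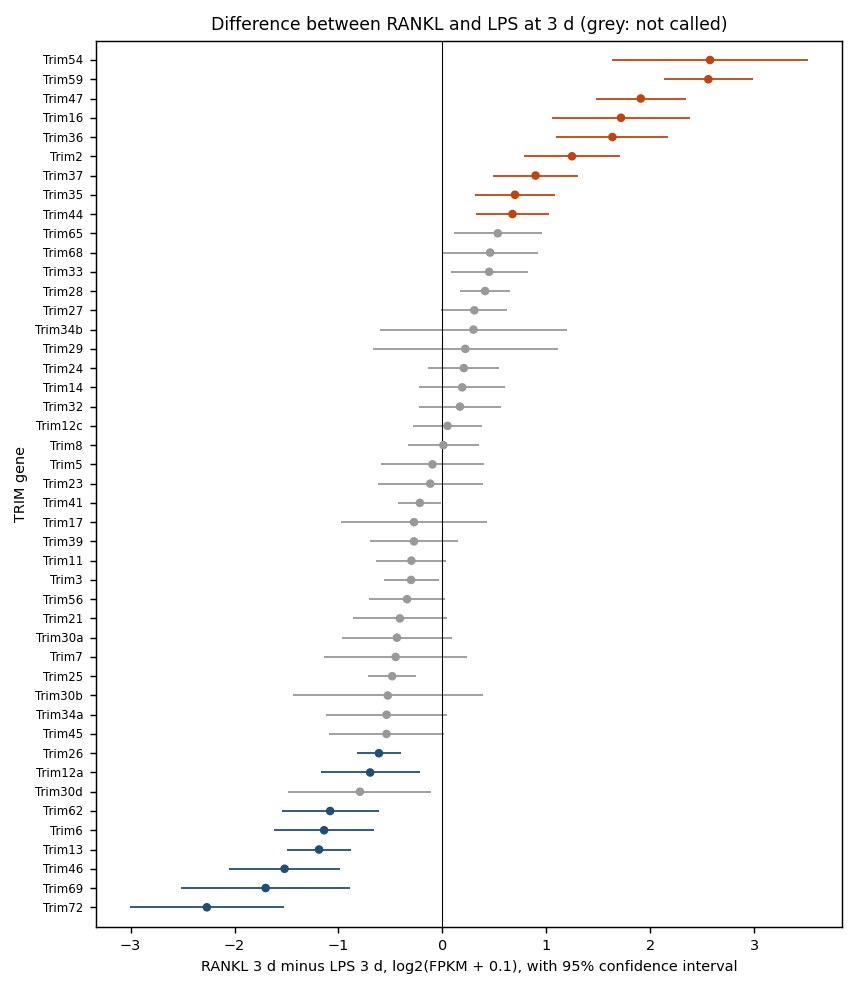
Points are the RANKL 3 d minus LPS 3 d difference of each of the 45 TRIM genes on the log2(FPKM + 0.1) scale, and lines are 95% confidence intervals from the limma fit. Red genes were called higher with RANKL, blue lower, and grey were not called, with Trim54 and Trim59 at one end and Trim72, Trim69 and Trim46 at the other.

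TRIM proteins with other symbols and the genes around the ligases were read beside the family. Of 4 such TRIM proteins tested, Mefv, the pyrin inflammasome sensor, rose by 1.20 after 3 d of RANKL, by 3.95 after 4 h of LPS and by 1.80 after 3 d of LPS, and Mid2, a microtubule-binding relative, rose by 1.12 after 3 d of RANKL (limma, adjusted p from 3.27e-07 to 0.0127). Of 15 RNA and DNA sensing genes tested, 5 fell (33.3%) and none rose after 3 d of RANKL, against 7.54% of all genes lower, among them Ifih1, which encodes the MDA5 sensor, and Isg15. After 4 h of LPS 7 rose and 4 fell, against 8.43% of all genes higher and 39.7% lower, with Ifih1 at 2.55 and Mavs, the adaptor downstream of it, at -1.90, and after 3 d of LPS 2 rose and 6 fell, against 13.0% higher and 14.4% lower. Of 16 Hippo pathway genes tested, 2 rose after 3 d of RANKL (Tead1 and Amotl1), 12.5% against 16.6% of all genes, which is no more than the background. After 3 d of LPS 6 rose (37.5%), against 13.0% of all genes, and none fell at either 3 d time. With centring, 3 of the 16 were higher after 3 d of LPS, against 1212 of all 11743 genes. Yap1 was not among the 16 Hippo genes, as genes that late in the alphabet were not analysed here.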

How the data were processed

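RNA of 15 BMDM samples in 5 groups was sequenced by the study. The authors estimated FPKM per gene with StringTie and Ballgown, on GRCm38.p4/mm10 per the submitters' processing notes, and deposited the FPKM values; the aligner and strand setting are not given in the sources used here. The last line of the table, for 1 gene, was incomplete and was left out, and genes later in the alphabet were not analysed here. Groups and replicate numbers came from the labels.

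Genes averaging 0.1 FPKM or more (11743 of 20089) were fitted on log2(FPKM + 0.1) with limma 3.58.1 in R 4.3.3, with 1 mean per group and a mean-variance trend. Calls needed a fold change above 1.5 or below 0.66 and a Benjamini-Hochberg adjusted p below 0.05 over all genes. Fragments were recovered from the steps between low FPKM values for 14485 of 14485 genes above 0 in 3 samples or more, within 0.01 of a whole number. The smallest whole numbers that fit were taken. As a check, the step times the length of a matched transcript lay within 2% of its commonest value for 33.8% of 8412 genes. The number of fragments limits the precision of low genes. Scripts were tested on simulated data. Positions came from GENCODE M21 on GRCm38, and promoter windows from RefSeq on GRCm38.p6. Figures used matplotlib 3.10.9 with Python 3.11.15.

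Named with values were Trim46, the members called in a comparison (up to 10 a direction), the 5 highest by mean FPKM and those just above and below 0.1 FPKM. The members, the gene lists and the domain classes were chosen with earlier results of these data known. Same-numbered samples deviated together from their group means in the comparisons of RANKL 4 h, RANKL 3 d and LPS 4 h with control. They did so too for RANKL 4 h with LPS 4 h. Every r of 3 was above 0.1 (lowest 0.563, 0.127, 0.422 and 0.522). Unless a block is named, the reported estimates, calls and p-values come from the fit without it and leave this pairing out. The replicate number was used as a block only in 1 of the alternatives. The labels do not say what a number marks. The alternatives numbered 25: pseudocounts of 1 and 0.01, no filter, a mean of at least 1 FPKM, 2 rescalings, the block, unadjusted p, limma voom on recovered fragments, only the groups compared, and leaving out each of the 15 samples.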

Additional observations from a re-analysis of the deposited data

Results flagged for a closer look

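The comparison of LPS 3 d with LPS 4 h tests directly whether the difference of a TRIM gene from the shared control changed between the 2 times. In it 34 of the 45 TRIM genes differed (75.6%), 23 higher and 11 lower at 3 d (limma, adjusted p from 1.94e-07 to 0.0398). Of all genes tested, 58.1% differed, 44.2% higher and 13.9% lower. With samples centred on their median gene 11 were higher and 15 lower, against 2209 higher and 3224 lower of all 11743 genes. The median was 0.63 over TRIM genes and 0.52 over all genes.

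Lower at 3 d than at 4 h were 11 genes, 9 of them from the 14 interferon-linked TRIM genes tested. On the log2(FPKM + 0.1) scale they were Trim36 (-2.79), Trim21 (-2.27), Trim30b (-1.93), Trim30d (-1.53), Trim30a (-1.26), Trim12a (-0.97), Trim14 (-0.86), Trim26 (-0.82), Trim25 (-0.79), Trim56 (-0.78) and Trim13 (-0.71). Trim21 fell from 59.8, 72.4 and 70.2 FPKM at 4 h to 14.8, 16.04 and 11.1 FPKM at 3 d, and Trim36 from 4.64, 4.19 and 2.51 FPKM to 0.455, 0.510 and 0.372 FPKM. For both genes every 3 d sample was below every 4 h sample. Of the 14 interferon-linked genes, 1 was higher (Trim5). Of the 8 interferon response markers 7 fell as well, against 13.9% of all genes lower, and their part was not tested.

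Higher at 3 d were 23 genes. The 5 largest differences were those of Trim65 (2.54), Trim7 (2.45), Trim62 (2.16), Trim8 (1.85) and Trim72 (1.75). Trim65 went from 0.295, 0.256 and 0.272 FPKM at 4 h to 2.30, 1.89 and 2.06 FPKM at 3 d, and Trim8 from 8.16, 8.65 and 10.03 FPKM to 36.5, 32.1 and 29.2 FPKM. Both were low at 4 h and at 3 d overlapped the controls. Next were Trim45 (1.72), Trim69 (1.61), Trim68 (1.47), Trim46 (1.47), Trim32 (1.44), Trim41 (1.27), Trim24 (1.20), Trim23 (0.94), Trim11 (0.94), Trim3 (0.93), Trim37 (0.93) and Trim5 (0.92). The smallest were Trim16 (0.77), Trim39 (0.76), Trim28 (0.72), Trim47 (0.66), Trim2 (0.65) and Trim44 (0.63). Without 1 sample, calls were lost for Trim16 (LPS 3 d replicate 2 or 3, LPS 4 h replicate 1 or 2, RANKL 3 d or RANKL 4 h replicate 2), Trim2 (LPS 3 d replicate 1 or LPS 4 h replicate 2), Trim39 (LPS 3 d replicate 1), Trim44 (LPS 3 d replicate 2 or LPS 4 h replicate 1) and Trim47 (LPS 3 d replicate 3). With 3 samples a group, no formal outlier test was made on single genes.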

How the results depend on the processing

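The count of TRIM genes called after 4 h of RANKL, 1 in the analysis as reported, was 0 when samples were centred on their median gene, when FPKM were rescaled to equal sums, with limma voom on recovered fragments and with only the 2 groups compared. It was 8 with unadjusted p, and 0 to 1 when any 1 sample was left out. At a pseudocount of 1 the count was 8 in place of 15 after 3 d of RANKL and 7 in place of 11 after 3 d of LPS. The remaining counts stayed within 1.5 times of their reported value under all 25 alternatives, and 1 called difference changed sign: Trim44, higher at 3 d than at 4 h of LPS as reported, was at -0.0214 with centring and was not called. The cause of these changes was not tested. With any 1 sample left out the counts ranged from 10 to 15 (RANKL 3 d) and 25 to 30 (LPS 4 h) against control, 9 to 15 (LPS 3 d) against control, 30 to 34 and 15 to 19 for RANKL against LPS at 4 h and 3 d, and 32 to 35 for LPS 3 d against 4 h. Calls kept under every alternative were 0 of 1, 6 of 15, 14 of 28 and 6 of 11 for RANKL 4 h, RANKL 3 d, LPS 4 h and LPS 3 d against control. In the fit with a replicate block the counts were 1, 16, 28 and 10 against control in that order, 34 and 18 for RANKL against LPS at 4 h and 3 d, and 34 for LPS 3 d against 4 h; Trim29 (0.96, adjusted p = 0.0213) and Trim34a (-0.60, adjusted p = 0.0415) gained a call between RANKL and LPS at 4 h. In the other 3 comparisons the samples share only a number: same-numbered samples had correlations down to -0.0464, -0.224 and -0.145 for LPS 3 d against control, RANKL 3 d against LPS 3 d and LPS 3 d against 4 h, and 2, 0 and 1 of 6 samples correlated best with their own number. There the block gave Trim46 an adjusted p of 0.05001 after 3 d of LPS, without a call, and called Trim30d lower with RANKL at 3 d (-0.79, adjusted p = 0.0289). It changed no call beyond these and Trim30b. Depth limits Trim2, Trim7, Trim29, Trim30b, Trim34b, Trim46, Trim54, Trim68, Trim69 and Trim72 most, with at most 126 fragments in any sample.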
